A study of Mus musculus with 6 samples.

Results

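The 3 genes of the PAR bZIP family, Dbp, Tef and Hlf, and the related repressor gene Nfil3 were followed across 3 mouse embryonic fibroblast lines that lack core clock genes. These 4 genes were chosen by name, and all 4 are among the 27179 genes counted. All 4 reached the mean of 100 normalized counts required for testing, as did 11934 genes in all. The lines are immortalized fibroblasts of C57BL/6 background, grown without synchronization in medium with serum. Each line is represented by 2 libraries, made from separate RNA extractions. Cry/Per_KO cells are cry1-/-, cry2-/-, per1-/- and per2-/-, so that NR1D1 and NR1D2 remain. Cry/Per/Nr1d_KO cells carry these mutations together with nr1d1-/- and nr1d2-/-. Per/Nr1d_KO cells are per1-/-, per2-/-, nr1d1-/- and nr1d2-/-, so that CRY1 and CRY2 remain. All lines lack Per1 and Per2 function, and no wild-type line was included. The Cry/Per/Nr1d_KO line is 1 CRISPR/Cas9 clone made from Cry/Per_KO cells, whereas Per/Nr1d_KO is a separately made line, so that the return of CRY and the origin of the line cannot be told apart. In the same way, the loss of NR1D cannot be told apart from other differences of the clone.

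PAR bZIP proteins (DBP, TEF and HLF) are transcription factors with a proline and acidic amino acid rich region next to the basic leucine zipper. They bind the D-box, a short element with the core TTATGTAA or TTACGTAA, and activate transcription there. NFIL3, also called E4BP4, binds the same element through a closely related basic region and represses it. In the circadian clock, CLOCK-BMAL1 activates PAR bZIP genes through E-boxes (CACGTG), while Nfil3 carries a retinoic acid-related orphan receptor response element (RRE), on which ROR proteins activate and NR1D proteins repress. The D-box thus receives an activator and a repressor arm that are driven from different elements of the clock.

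The genotype given for a library and the name of its deposited counts contradict each other for 2 pairs of libraries, Cry/Per_KO being exchanged with Cry/Per/Nr1d_KO. The genotype was used here. Each pair is therefore named by its label (the pair labelled Cry/Per_KO or, for short, the Cry/Per_KO pair, and likewise for Cry/Per/Nr1d_KO), and values under the exchanged reading are stated where the direction or the reference depends on it. RNA of the 6 mutated genes was present in every library, at 1004 to 9337 normalized counts, so that the presence of their RNA was not used to choose a reading, and which reading holds was not settled here. The readings are not on an even footing. Arntl, Cry1 and Nfil3, known targets of NR1D repression, had higher values in the pair labelled as keeping NR1D (given with the RRE genes). Higher RNA without NR1D, the direction of known repression, holds for these genes only under the exchanged reading. Every direction between the lines without CRY is therefore to be taken as uncertain, and so is the name of each reference of Per/Nr1d_KO. Library totals lay between 53764390 and 85927236 counts, and the 2 libraries of each line correlated across genes with a Pearson's r of 0.998 (log2 CPM). Of 6 fibroblast marker genes, 5 passed 100 normalized counts on average, and Thy1 was nearly absent, with a mean of 1.96. The summed fibroblast markers were at 826868 to 920255 normalized counts in the 4 libraries without CRY and at 1655843 to 1676038 in Per/Nr1d_KO. Collagen and fibronectin genes carried this sum, whereas Vim (log2 fold changes of -0.87 and -0.63 in Per/Nr1d_KO against the pairs labelled Cry/Per/Nr1d_KO and Cry/Per_KO) and Pdgfrb (-1.33 and -1.34) went the other way. Summed epithelial markers were at 17.7 to 61.1 against 134 to 138, summed endothelial markers at 40.1 to 120 against 77.3 to 90.0, and summed immune markers at 110 to 162 against 262 to 280 in the same order. The immune sum was carried by Cd68, while Ptprc and Adgre1 had at most 3.95 normalized counts in any library. The part of these differences in the results that follow was not tested.

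The promoter windows of Tef and Nfil3 are shown because they hold a match to the E-box (Tef) or to the half-site of an RRE (Nfil3). RefSeq windows of GRCm38.p6, from 250 bases before to 50 bases after a transcription start, were matched for all 4 genes, with 2 windows for Tef and 1 for each of the others. They were searched on both strands for the E-box CACGTG, the variant CACGTT, the D-box cores TTATGTAA and TTACGTAA, and the RRE core TAGGTCA. Both Tef windows held 1 CACGTG, and the Nfil3 window held 1 TAGGTCA read on the opposite strand as TGACCTA. Matches are in capitals, and each sequence is given 5′ to 3′ on the strand of the gene.
Tef, first start (chr15:81802423-81802722, plus strand): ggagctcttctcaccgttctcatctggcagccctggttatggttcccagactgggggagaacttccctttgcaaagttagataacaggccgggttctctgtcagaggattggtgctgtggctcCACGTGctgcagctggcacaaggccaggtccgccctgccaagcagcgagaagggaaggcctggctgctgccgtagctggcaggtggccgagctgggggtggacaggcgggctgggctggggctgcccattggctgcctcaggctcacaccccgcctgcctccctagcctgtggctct
Tef, second start (chr15:81811164-81811463, plus strand): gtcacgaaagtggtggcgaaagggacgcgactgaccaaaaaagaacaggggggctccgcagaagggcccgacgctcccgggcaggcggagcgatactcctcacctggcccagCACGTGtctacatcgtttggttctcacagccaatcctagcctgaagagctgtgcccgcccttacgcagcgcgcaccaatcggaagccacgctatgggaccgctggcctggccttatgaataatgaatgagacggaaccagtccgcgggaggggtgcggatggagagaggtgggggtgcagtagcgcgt
Nfil3 (chr13:52980990-52981289, minus strand): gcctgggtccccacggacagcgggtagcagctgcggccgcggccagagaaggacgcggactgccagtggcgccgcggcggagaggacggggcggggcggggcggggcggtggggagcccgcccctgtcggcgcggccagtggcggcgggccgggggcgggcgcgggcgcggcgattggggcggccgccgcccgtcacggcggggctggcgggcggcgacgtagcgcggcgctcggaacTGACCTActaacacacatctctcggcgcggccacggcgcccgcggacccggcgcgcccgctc

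The Tef matches lay at positions -127 to -122 of the first start and -138 to -133 of the second, where -1 is the base before the start. The Nfil3 match lay at -12 to -6. Of 32851 windows of this length in the mouse, 7.15% held CACGTG, 4.68% held CACGTT, 2.61% held TAGGTCA, 0.938% held TTATGTAA and 0.119% held TTACGTAA. The windows of Dbp and Hlf held none of these motifs, and no member window held CACGTT or a D-box core. A longer form of the RRE, which contains TAGGTCA, was also searched for, and no member window held it. The Nfil3 window thus matched the half-site and not the longer RRE. Elements outside the 300 bases were not searched, and a match is not evidence of binding. Among the 5 genes with a described RRE that had a window, TAGGTCA was found in Arntl and Nfil3, and the longer form in Arntl only.

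Dbp (Entrez Gene 13170, chromosome 7 of GRCm38, 45705088 to 45710203, plus strand) encodes the D site albumin promoter binding protein, the PAR bZIP factor with the strongest circadian rhythm in many tissues. The pair labelled Cry/Per/Nr1d_KO had 692 and 731 normalized counts, the Cry/Per_KO pair had 1675 and 1760, and the Per/Nr1d_KO pair had 175 and 140. The groups did not overlap, and Per/Nr1d_KO was lowest. In these bulk libraries, fewer cells that express a gene and less of its RNA per cell cannot be told apart. Comparisons between lines are given as log2 fold changes with their standard errors (SE) and p-values adjusted by the Benjamini-Hochberg method over all genes tested, both from the quasi-likelihood method of edgeR, and a gene was called where its adjusted p was under 0.05 and its change above 1.75-fold. Relative to the pair labelled Cry/Per/Nr1d_KO, Dbp was 4.59-fold lower in Per/Nr1d_KO (log2 fold change -2.20 ± 0.11 SE, edgeR adjusted p = 3.2e-11). Relative to the pair labelled Cry/Per_KO, it was 11.1-fold lower (log2 fold change -3.47 ± 0.099 SE, edgeR adjusted p = 4.5e-14). Between the lines that lack CRY, Dbp was 2.42-fold higher in the pair labelled Cry/Per_KO (log2 fold change 1.27 ± 0.081 SE, edgeR adjusted p = 1.7e-09), which becomes -1.27 if the labels are exchanged. Of the 11934 genes tested, 7.72% had a larger absolute log2 fold change than Dbp in this comparison. Exons of Sphk2 on the opposite strand cover 18% of the Dbp exon bases, and the strand setting of the counting is not given in the sources used here. Sphk2, named here because of this overlap, had 1254 to 1806 normalized counts over the 6 libraries, and its log2 fold changes in the 3 comparisons lay between -0.34 and 0.16, none of them called.

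Tef (Entrez Gene 21685, chromosome 15, 81802421 to 81826863, plus strand) encodes thyrotroph embryonic factor, first found in the embryonic pituitary. Its normalized counts were 13727 and 12876 in the pair labelled Cry/Per/Nr1d_KO, 13182 and 13875 in the Cry/Per_KO pair, and 6913 and 7365 in Per/Nr1d_KO. The lines without CRY overlapped, and both Per/Nr1d_KO libraries lay below them. Against the pair labelled Cry/Per/Nr1d_KO, Tef was 1.86-fold lower in Per/Nr1d_KO (log2 fold change -0.90 ± 0.050 SE, edgeR adjusted p = 2.0e-10). Against the Cry/Per_KO pair, it was 1.89-fold lower (log2 fold change -0.92 ± 0.050 SE, edgeR adjusted p = 1.0e-10). Its log2 fold change between the lines without CRY was 0.02 ± 0.049 SE (edgeR adjusted p = 0.66), and 96.0% of the genes tested had a larger absolute difference. Exons of Gm17597 on the opposite strand cover 2.45% of the Tef exon bases, and Hlf and Nfil3 share no exon bases with another gene.

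Hlf (Entrez Gene 217082, chromosome 11, 90336536 to 90390895, minus strand) encodes hepatic leukemia factor, known also as a marker of blood stem cells. It had 807 and 957 normalized counts in the pair labelled Cry/Per/Nr1d_KO, 1052 and 1013 in the Cry/Per_KO pair, and 63.4 and 49.7 in Per/Nr1d_KO. The raw counts behind the lowest pair were 50 and 63, and Hlf reached the mean required for testing through the lines without CRY. Per/Nr1d_KO was far below the other lines, and the remaining pairs lay close together without overlap. Hlf had the largest change of the 4 genes, 15.9-fold lower in Per/Nr1d_KO than in the pair labelled Cry/Per/Nr1d_KO (log2 fold change -3.99 ± 0.14 SE, edgeR adjusted p = 5.1e-13). It was 18.7-fold lower than in the Cry/Per_KO pair (log2 fold change -4.22 ± 0.13 SE, edgeR adjusted p = 1.7e-13). Only 3.14% and 3.80% of the genes tested had larger absolute differences in these comparisons. Between the lines without CRY the log2 fold change was 0.23 ± 0.090 SE (edgeR adjusted p = 0.030, and 0.055 with DESeq2), inside the limit of 1.75-fold and turned to -0.23 by an exchange of the labels. This value rested on single libraries, since it was 0.11 without Cry/Per/Nr1d_KO replicate 1 and 0.36 without Cry/Per/Nr1d_KO replicate 2.

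Nfil3 (Entrez Gene 18030, chromosome 13, 52967209 to 52981073, minus strand) encodes the D-box repressor and was ordered differently from the activators. Its normalized counts were 2245 and 2164 in the pair labelled Cry/Per/Nr1d_KO, 3183 and 3401 in the Cry/Per_KO pair, and 4559 and 4456 in Per/Nr1d_KO. No groups overlapped, and the line with the lowest Dbp, Tef and Hlf was the line with the highest Nfil3. Per/Nr1d_KO was 2.04-fold higher than the pair labelled Cry/Per/Nr1d_KO (log2 fold change 1.03 ± 0.053 SE, edgeR adjusted p = 8.0e-11), a called rise. It was 1.37-fold higher than the Cry/Per_KO pair (log2 fold change 0.45 ± 0.052 SE, edgeR adjusted p = 8.9e-07), a difference beyond the spread of the libraries that stayed under the 1.75-fold limit. The lines that differ in NR1D but not in CRY are Cry/Per_KO and Cry/Per/Nr1d_KO. In their comparison, the loss of NR1D and the choice of the clone cannot be told apart. There the log2 fold change was 0.58 as labelled and -0.58 after an exchange (SE 0.054, edgeR adjusted p = 1.3e-07), inside the limit in either case. Under the labels Nfil3 was thus higher in the line that keeps NR1D, and under the exchanged reading it was lower there. Genes of chromosome 13 had median log2 fold changes of 0.35 between the lines without CRY and 0.22 in Per/Nr1d_KO against the pair labelled Cry/Per/Nr1d_KO. Subtracting these medians left 0.23 and 0.81 for Nfil3, the latter barely past the limit of 0.81 on the log2 scale. Such shifts were not particular to Nfil3. Between the lines without CRY, medians of -0.27 (chromosome 7) and -0.29 (chromosome 15) moved Dbp from 1.27 to 1.54 and Tef from 0.02 to 0.32. In Per/Nr1d_KO against the Cry/Per_KO pair, the chromosome 15 median of 0.35 moved Tef from -0.92 to -1.27.

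**Figure D1:**
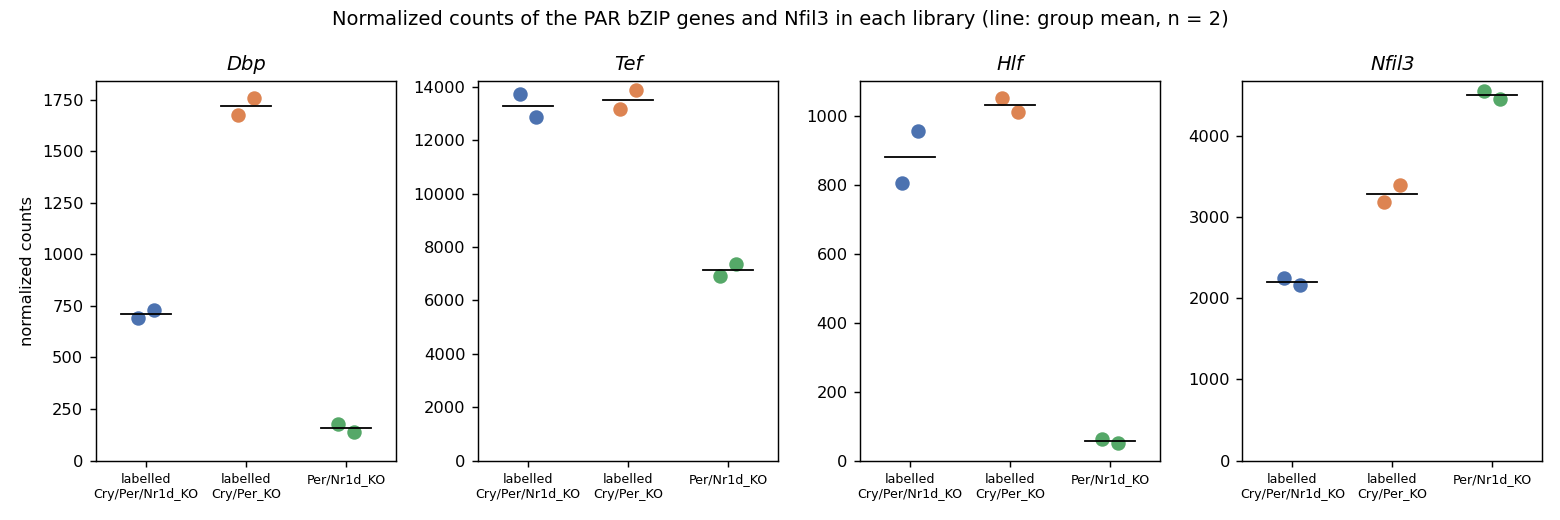
Normalized counts (y axis) of Dbp, Tef, Hlf and Nfil3 in each of the 6 libraries (points) by cell line as labelled (x axis), with the group mean of 2 libraries as a line. Per/Nr1d_KO is lowest for Dbp (175 and 140), Tef (6913 and 7365) and Hlf (63.4 and 49.7) and highest for Nfil3 (4559 and 4456).

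All 3 activator genes were called lower and Nfil3 was called higher in Per/Nr1d_KO against the pair labelled Cry/Per/Nr1d_KO, where 20.7% of all genes tested were called (11.3% higher and 9.35% lower). The activators were called lower against the pair labelled Cry/Per_KO as well, where 29% of all genes were called (13.8% lower) and Nfil3 was not. Between the lines without CRY, Dbp alone was called among the 4 genes, against 16.8% of all genes tested (7.86% higher and 8.95% lower). The comparisons share libraries, so that they are not independent of each other. An exchange of the labels turns the sign of every comparison between the lines without CRY, here and in the gene lists that follow, and swaps the references of Per/Nr1d_KO, so that Nfil3 would be called higher against Cry/Per_KO and not against Cry/Per/Nr1d_KO. The median log2 fold change over all genes was 0.01, 0.03 and -0.00326 in the same order of comparisons.

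**Figure D2:**
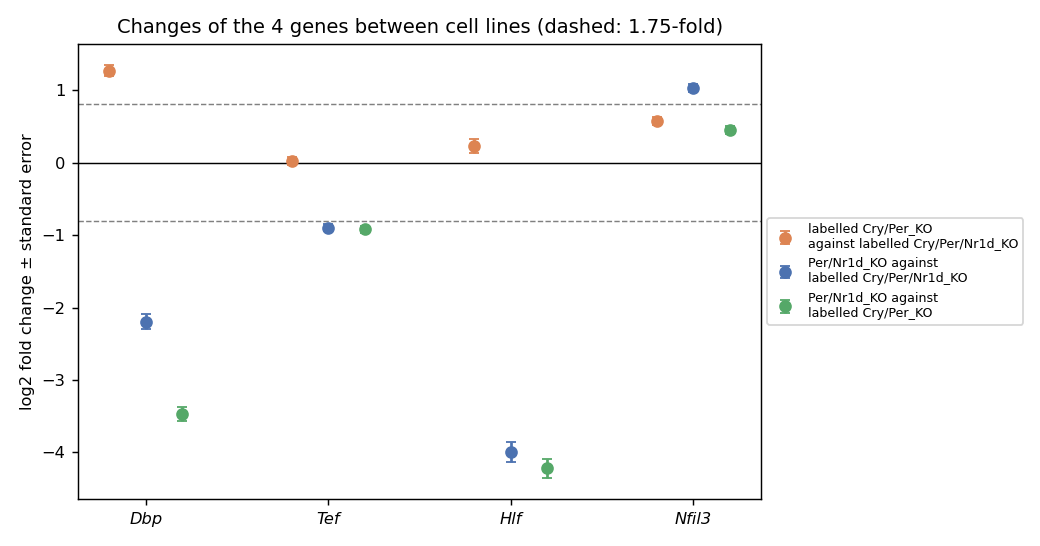
Log2 fold changes with standard errors (y axis) of the 4 genes (x axis) in the 3 comparisons between cell lines, each a fit of 6 libraries, with the 1.75-fold limit as dashed lines. Hlf (-3.99 and -4.22) and Dbp (-2.20 and -3.47) lie furthest below 0 in Per/Nr1d_KO, and Nfil3 (1.03 and 0.45) is above 0.

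Levels of different genes were compared per length, as CPM per kilobase of exon (RPKM), with the GENCODE exon bases of each gene. In the pair labelled Cry/Per/Nr1d_KO the order was Tef (25.7 ± 1.16 RPKM, SD, n = 2), Nfil3 (16.5 ± 0.429), Dbp (3.61 ± 0.140) and Hlf (2.0 ± 0.241), with no overlap between neighbours. In the Cry/Per_KO pair, Tef (26.1 ± 0.946 RPKM) and Nfil3 (24.7 ± 1.16) overlapped, followed by Dbp (8.71 ± 0.303) and Hlf (2.35 ± 0.0618). In Per/Nr1d_KO, Nfil3 came first (33.8 ± 0.548 RPKM), before Tef (13.8 ± 0.617), Dbp (0.800 ± 0.124) and Hlf (0.128 ± 0.0220). The place of Nfil3 thus moved from second to first, and Dbp stayed above Hlf in every library. RPKM values depend on the exon model, here the union of all annotated exons.

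The activator genes were then set against Nfil3 within each library, which removes the scaling of the library. Summed over Dbp, Tef and Hlf, the activators were at 31.8 and 30.7 RPKM in the pair labelled Cry/Per/Nr1d_KO, 36.3 and 38.0 in the Cry/Per_KO pair, and 14.4 and 15.0 in Per/Nr1d_KO. The ratio of this sum to Nfil3 was 1.89 in both libraries of the pair labelled Cry/Per/Nr1d_KO, 1.52 and 1.49 in the Cry/Per_KO pair, and 0.421 and 0.450 in Per/Nr1d_KO. Activator RNA therefore exceeded Nfil3 RNA per length in the 4 libraries without CRY and was below it in both libraries with CRY. Tef made up 80.9% to 83.2% of the sum in the pair labelled Cry/Per/Nr1d_KO, 70.0% to 70.5% in the Cry/Per_KO pair and 92.8% to 94.5% in Per/Nr1d_KO. Dbp contributed 11.0% and 12.1%, 23.4% and 23.5%, and 6.17% and 4.74% in the same order, and Hlf at most 7.08% in any library.

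Each activator alone was lowest relative to Nfil3 in Per/Nr1d_KO. The log2 ratio of Dbp to Nfil3 per length was -2.26 and -2.13 in the pair labelled Cry/Per/Nr1d_KO, -1.49 and -1.51 in the Cry/Per_KO pair, and -5.27 and -5.55 in Per/Nr1d_KO. For Tef they were 0.65 and 0.62 in the first of these pairs, 0.09 and 0.07 in the next, and -1.36 and -1.23 in Per/Nr1d_KO. The Hlf log2 ratios were -3.20 and -2.90, -3.32 and -3.47, and -7.89 and -8.21. The ratio in Per/Nr1d_KO was thus lower than in the pair labelled Cry/Per/Nr1d_KO by a factor of 9.27 for Dbp, 3.81 for Tef and 32.0 for Hlf. Against the pair labelled Cry/Per_KO, which the exchanged reading makes Cry/Per/Nr1d_KO, the factors were 15.0, 2.6 and 25.2 in this order of genes. Within the lines without CRY the ratios parted, since the mean log2 ratio of Dbp was 0.69 higher and that of Tef 0.55 lower in the pair labelled Cry/Per_KO, each more than the spread between libraries. The mean log2 ratio of Hlf was 0.35 lower there. The lower ratios of Tef and Hlf go with the higher Nfil3 of that pair (0.58), since Tef (0.02) and Hlf (0.23) themselves were not lower. With 2 libraries against 2, the smallest p that a two-sided exact permutation test allows is 0.333, so that these ratios are given without a test.

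**Figure D3:**
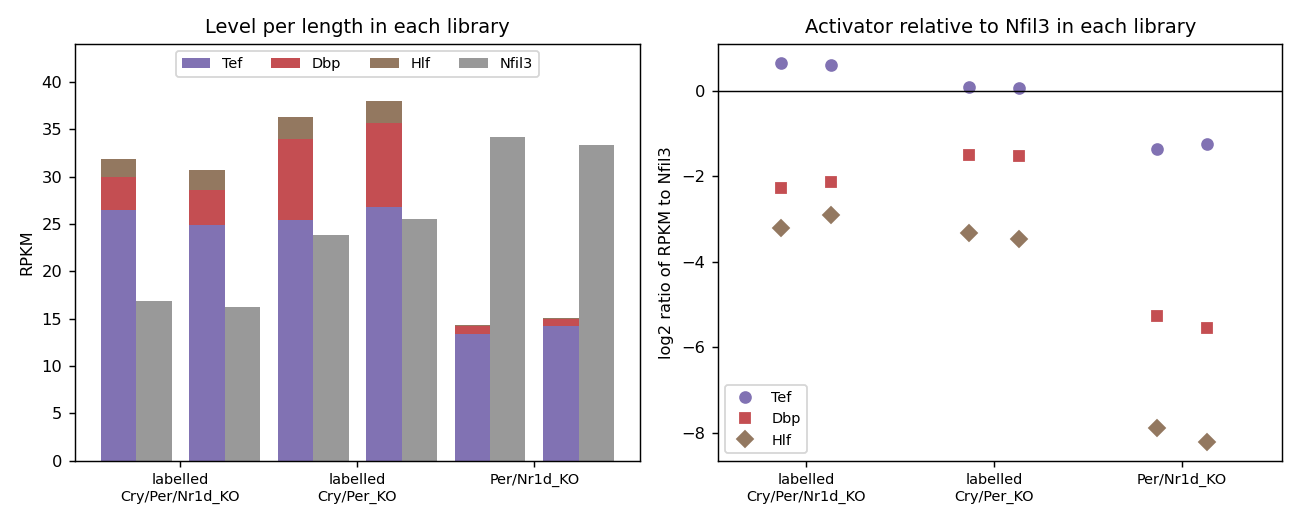
Left, level per length (RPKM, y axis) of Tef, Dbp and Hlf as stacked bars beside Nfil3 in each library, grouped by cell line as labelled (x axis). Right, log2 ratio of each activator to Nfil3 (y axis) in the same libraries, with the stacked sum exceeding Nfil3 in all but the 2 Per/Nr1d_KO libraries (ratios 0.421 and 0.450).

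Genes with a described E-box were examined as the setting of the activators. Of the genes listed, 8 were tested. In Per/Nr1d_KO against the pair labelled Cry/Per/Nr1d_KO, 4 of the 8 were called lower and none higher, with a median log2 fold change of -0.83, where 9.35% of all genes tested were called lower. These were Dbp, the period gene Per2 (-2.23), and the bHLH repressor genes Bhlhe40 (-1.20) and Bhlhe41 (-4.56), which encode DEC1 and DEC2. Bhlhe41 had 22.8 and 24.5 normalized counts in Per/Nr1d_KO and reached the mean required for testing through the lines without CRY. Against the pair labelled Cry/Per_KO, 7 of 8 were called lower with a median of -1.85 (13.8% of all genes), and the exception was Nr1d2 (-0.53). Dbp (-2.20) had a larger fall than the called Bhlhe40 and a change close to that of Per2 in the former comparison, and only Bhlhe41 (-4.93) had a larger fall than Dbp (-3.47) in the latter. In the pair labelled Cry/Per_KO against the other line without CRY, 4 of the 8 were called higher, namely Dbp, Per1 (0.90), Cry1 (1.66) and Nr1d1 (1.56), with a median of 0.81 (7.86% of all genes were called higher). Of the 8 genes, 5 are themselves mutated in 1 or more of the lines, and the part of the mutations in their RNA levels was not tested.

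Genes with a described D-box, the targets on which the activators and NFIL3 meet, were called in both directions in the first comparison and in 1 direction in the others. Of 7 genes listed, 6 were tested, and Rorb was below the filter. Per1, Per2, Nr1d1 and Nr1d2 are also among the E-box genes above, so that their calls are the same calls counted again. These genes are also mutated in 1 or more of the lines. In Per/Nr1d_KO against the pair labelled Cry/Per/Nr1d_KO, Per2 and Per3 (-1.49) were called lower and the nuclear receptor gene Rora (1.20) was called higher, while Per1 (-0.46), Nr1d1 (0.69) and Nr1d2 (0.12) were not called. The median log2 fold change of the 6 was -0.17, and 11.3% of all genes were called higher and 9.35% lower. Against the pair labelled Cry/Per_KO, Per1 (-1.36), Per2 (-2.68), Per3 (-2.65) and Nr1d1 (-0.87) were called lower and none higher, with a median of -1.11, where 13.8% of all genes were called lower. In the comparison without CRY, 4 of the 6 were called higher in the pair labelled Cry/Per_KO, namely Per1 (0.90), Per3 (1.17), Nr1d1 (1.56) and Rora (1.37), with a median of 1.03, where 7.86% of all genes were called higher. Rorb had 104 and 108 normalized counts in the pair labelled Cry/Per/Nr1d_KO, 76.8 and 73.6 in the Cry/Per_KO pair, and 8.87 and 12.6 in Per/Nr1d_KO.

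Genes with a described RRE gave the setting of Nfil3. Of the genes listed, 5 were tested, but Npas2, a paralog of Clock, passed the filter on low counts only through its high level in Per/Nr1d_KO, so that its values are given as a description. Nfil3 and Arntl (1.07), which encodes BMAL1, were called higher in Per/Nr1d_KO against the pair labelled Cry/Per/Nr1d_KO, where 11.3% of all genes were called higher. Clock (-0.40) and Cry1 (-0.13) were not called there. Cry1 is also among the E-box genes above and is mutated in the lines without CRY. Arntl had 1191 and 1171 normalized counts in the pair labelled Cry/Per/Nr1d_KO, 2176 and 2208 in the Cry/Per_KO pair, and 2493 and 2455 in Per/Nr1d_KO. Npas2, in normalized counts and the same order of pairs, stood at 49.7 and 41.1, then 64.6 and 67.8, then 312 and 260. Both had the same order of groups as Nfil3, lowest in the pair labelled Cry/Per/Nr1d_KO and highest in Per/Nr1d_KO. Cry1, at 1698 and 1724, then 5323 and 5478, then 1535 and 1592 normalized counts, was instead highest in the pair labelled Cry/Per_KO. Between the lines without CRY, Arntl (0.89) and Cry1 (1.66) were called higher in the pair labelled Cry/Per_KO (7.86% of all genes were), and Nfil3 (0.58) and Npas2 (0.53) had the same sign, which an exchange of the labels turns for all 4 genes. NR1D proteins are known repressors of Arntl, Cry1 and Nfil3, and these 3 genes had their higher values in the pair labelled as keeping NR1D, which under the exchanged reading is the pair without it. In Per/Nr1d_KO against the pair labelled Cry/Per_KO, Cry1 (-1.79) was called lower, as were 13.8% of all genes, and Nfil3 (0.45), Arntl (0.17) and Clock (-0.44) were not called.

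Genes known as outputs of PAR bZIP factors, mostly from liver and brain, were examined next. Of 10 listed, 4 reached the filter and were tested. Pdxk, which encodes the pyridoxal kinase of vitamin B6 metabolism, was called lower in Per/Nr1d_KO against both other lines. Its normalized counts were 6510 and 6091 in the pair labelled Cry/Per/Nr1d_KO, 5313 and 5620 in the Cry/Per_KO pair, and 3027 and 3019 in Per/Nr1d_KO, with log2 fold changes of -1.06 and -0.86. Por, the cytochrome P450 reductase gene (-0.20 and -0.24), and Alas1, of haem synthesis (-0.15 and -0.51), were not called in either comparison. Abcb1a, a multidrug transporter gene, was called higher in the pair labelled Cry/Per_KO against the Cry/Per/Nr1d_KO pair (1.33) and had 0.78 and -0.55 in Per/Nr1d_KO against the respective references. The medians of the 4 were -0.17 and -0.53 in Per/Nr1d_KO and 0.20 between the lines without CRY. Without Cry/Per/Nr1d_KO replicate 2, or without Per/Nr1d_KO replicate 2, 2 of the 4 rather than 1 were called in the former comparison, and 20.7% of all genes were called there, close to 1 of 4. The calls of Pdxk alone against the pair labelled Cry/Per_KO and of Abcb1a alone between the lines without CRY, each 1 of 4, stand beside 29% and 16.8% of all genes called. Cyp2a5 and Ces2a had a count of 0 in every library, which allows up to 3 counts each, and Cyp7a1, Cyp2b10, Nr1i3 and Ppara did not reach the filter.

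C/EBP genes encode the bZIP family whose sites resemble the D-box. Of 6 genes listed, 4 were tested, and Cebpd was the 1 gene called in each comparison, a share close to that of all genes (16.8% to 29%). Cebpd had 898 and 1008 normalized counts in the pair labelled Cry/Per/Nr1d_KO, 1799 and 2114 in the Cry/Per_KO pair, and 6104 and 5246 in Per/Nr1d_KO. Its log2 fold changes were 2.58 (SE 0.089) and 1.53 (SE 0.083) in Per/Nr1d_KO against the respective references, and 1.04 between the lines without CRY. Like Nfil3, it was highest in Per/Nr1d_KO. Cebpa, below the filter, stood at 47.9 and 35.5, then 5.56 and 5.89, then 185 and 161 on this scale. Cebpb (0.56 and 0.76), Cebpg (-0.24 and 0.09) and Ddit3 (-0.49 and -0.38) were not called in Per/Nr1d_KO against either reference, and the medians of the 4 were 0.16 and 0.42. Against the pair labelled Cry/Per_KO, 2 of the 4 were called without Cry/Per_KO replicate 2 or without Per/Nr1d_KO replicate 2.

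**Figure D4:**
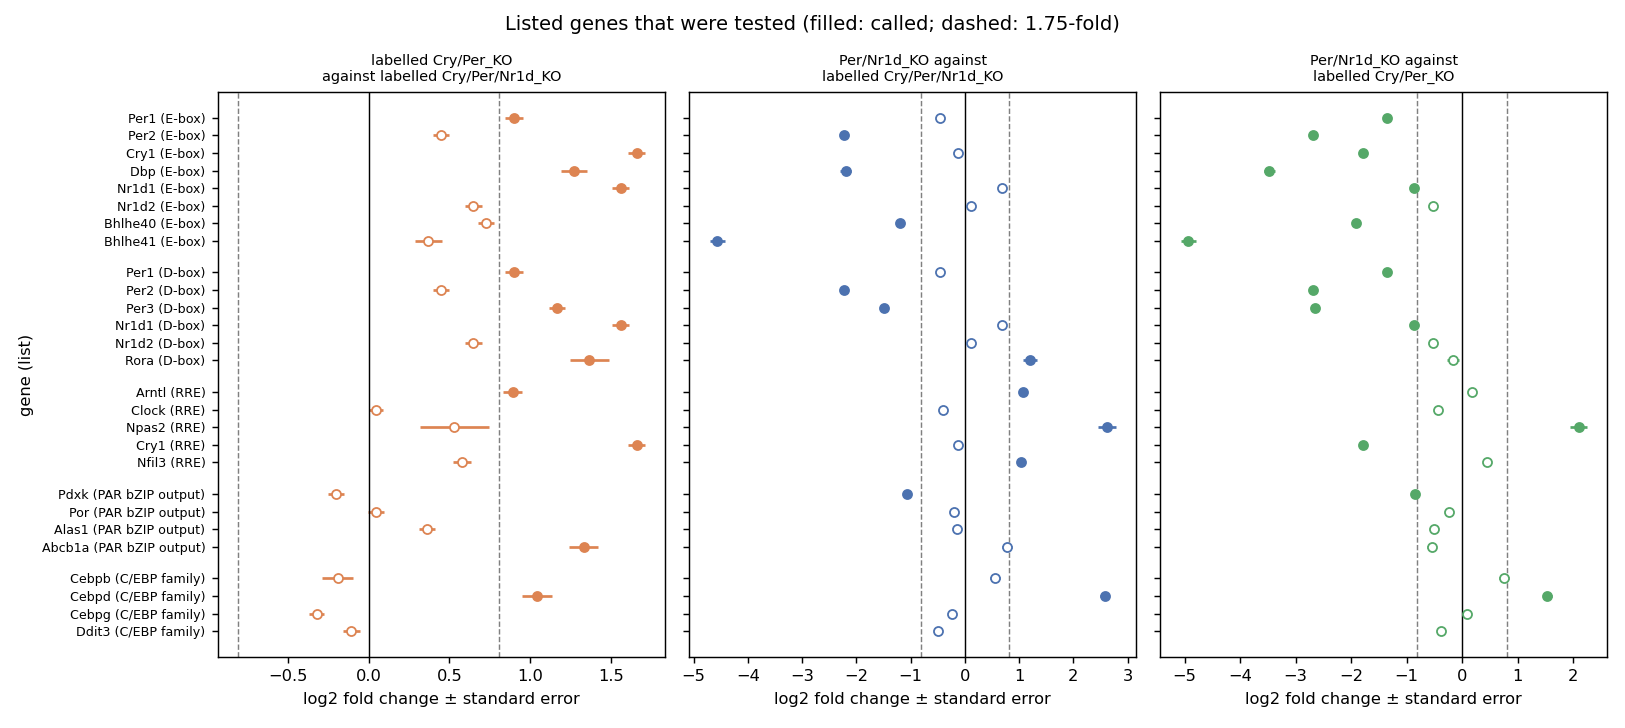
Log2 fold changes with standard errors (x axis) of the tested genes of 5 lists (y axis) in the 3 comparisons, with called genes filled and the 1.75-fold limit dashed. Bhlhe41 (-4.56) and Dbp (-2.20) are among the lowest E-box genes in Per/Nr1d_KO against the pair labelled Cry/Per/Nr1d_KO, whereas Arntl (1.07) and Nfil3 (1.03) are above the limit.

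Patterns over the 6 libraries were compared by the root mean square difference of log2 CPM values, each gene centred on its own mean. Among the genes tested, Plscr4 (0.12), Nxpe4 (0.13) and Apold1 (0.14) were nearest to Dbp. Plscr4 had 1171 and 1260 normalized counts in the pair labelled Cry/Per/Nr1d_KO, 3053 and 3105 in the Cry/Per_KO pair, and 248 and 249 in Per/Nr1d_KO. Dip2c (0.03), Fam118b (0.04) and Nphp4 (0.04) were nearest to Tef, and Rab7b (0.09), Apc2 (0.10) and Htra1 (0.16) to Hlf. Ttc7b (0.02), H6pd (0.03) and Plscr1 (0.04) were nearest to Nfil3. Within the family, Dbp and Hlf differed by 0.72, Dbp and Tef by 1.03, and Tef and Hlf by 1.49, so that each had genes of other families nearer to it than its relatives. Nfil3 differed from Hlf by 2.26, from Dbp by 1.7 and from Tef by 0.81. With 3 groups of 2 libraries, these distances are a description only.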

How the data were processed

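Poly-A RNA of 3 fibroblast lines, 2 libraries each, was sequenced from TruSeq stranded libraries as single-end reads. Reads were aligned to mm10 with STAR by the authors, who deposited whole-number counts per Entrez Gene ID from featureCounts, without normalization. The authors' deposited DESeq2 tables hold their own comparisons and were not used.

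Libraries were grouped by the genotype in the labels. The main test was that of edgeR 4.0.16 in R 4.3.3 (TMM, quasi-likelihood test, all 6 libraries in 1 fit of 3 groups, no replicate term) with DESeq2 1.42.0 as an alternative. Genes averaging 100 or more normalized counts, scaled to the mean effective library size, were tested, and p-values were adjusted over 11934 genes by the Benjamini-Hochberg method. A gene was called at an adjusted p under 0.05 and a change above 1.75-fold, the paper's limit. A standard error is the log2 fold change divided by the square root of F. The log2 CPM values used a prior count of 2. The p-values measure the spread between 2 RNA preparations of 1 line, with a common biological coefficient of variation of 0.0393. Symbols came from RefSeq (25275 of 27179 genes matched), positions and exon bases from GENCODE vM21, promoter windows from RefSeq, both of GRCm38, the assembly of mm10. The fit was also run on simulated counts with the same spread for every gene. These held no differences of clone or chromosome, so that they do not measure error rates in the present data.

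The members and lists were chosen with earlier results of these data known. The genes named were the 4 members, the listed genes and the 3 nearest patterns of each member, with Sphk2 added for its overlap with Dbp. Alternatives were DESeq2, the paper's adjusted p limit of 1e-22, median-of-ratios size factors, other filters, no fold limit, the compared groups alone, a replicate block, each library left out, exchanged labels and chromosome medians subtracted (the p kept). RT-qPCR and Western blots were not analysed here, and 1 listed gene is not reported here. The limit of 3 counts given for a count of 0 covers counting error only, since reads carry no molecular identifiers.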

Additional observations from a re-analysis of the deposited data

How the results depend on the processing

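Apart from the exchange of the labels, all calls of the 4 genes in Per/Nr1d_KO and the call of Dbp between the lines without CRY kept direction and side of the threshold under every alternative, except that dropping the limit on the fold added Hlf (0.23) and Nfil3 (0.58) between the lines without CRY and Nfil3 (0.45) in the comparison of Per/Nr1d_KO with Cry/Per_KO. Over these alternatives the log2 fold change in Per/Nr1d_KO against the pair labelled Cry/Per/Nr1d_KO ran from -2.34 to -2.03 for Dbp, -0.95 to -0.85 for Tef, -4.14 to -3.80 for Hlf and 0.81 to 1.06 for Nfil3. Between the lines without CRY, Tef lay between -0.021 and 0.072 with each library left out and at 0.32 with the chromosome median subtracted. Exchanging the labels turned the comparison of these lines to -1.27 (Dbp), -0.024 (Tef), -0.23 (Hlf) and -0.58 (Nfil3), and exchanged the references of Per/Nr1d_KO, so that Nfil3 had 0.45 (not called) against Cry/Per/Nr1d_KO and 1.03 (called) against Cry/Per_KO. It also exchanged the mean log2 ratios to Nfil3, to -1.50 for Dbp, 0.082 for Tef and -3.39 for Hlf in Cry/Per/Nr1d_KO and to -2.20, 0.64 and -3.05 in Cry/Per_KO.

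The number of genes called, with the lines named as labelled, moved with the thresholds. For Cry/Per_KO against Cry/Per/Nr1d_KO, 2006 became 1150 with the paper's limit on p in DESeq2, 3808 without an expression filter, 3311 with a mean of at least 10 and 9118 without a fold limit. For Per/Nr1d_KO against Cry/Per/Nr1d_KO, 2468 became 4576, 3912 and 9042 under the last 3 of these, and for Per/Nr1d_KO against Cry/Per_KO, 3457 became 5590 without a filter and 9793 without a fold limit. The paper's limit on p gave 1802 and 2600 in these comparisons. The replicate block gave 2002, 2468 and 3457 calls and changed no call of the 4 genes. Same-numbered libraries had correlations of deviations of -0.21, -0.10 and -0.02, so that no pairing by number was seen. The deviations of the 2 libraries of a line mirror each other, and a batch shared across different numbers was not tested. With 2 libraries per line, a left-out library leaves 1 that is assumed to vary like the others. Hlf in Per/Nr1d_KO rests on 50 and 63 counts.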
